A study of Mus musculus with 2 samples.

Results

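The myeloid regulators described here are 7 of the 31053 genes counted in mouse LSK cells: the transcription factors Spi1, Cebpa, Cebpb, Irf8, Gfi1 and Klf4, and the receptor gene Csf1r. They were chosen as a list of genes known to direct or mark the myeloid lineage and all 7 were present in the count table. LSK cells, which lack lineage markers and carry Sca-1 and c-Kit, contain the hematopoietic stem cells and the earliest progenitors of the bone marrow. They were sorted from pooled C57BL/6JRj mice of 3 to 5 months (young) and of 22 to 28 months (old) and profiled by CITE-Seq, which counts the transcripts of a cell together with DNA tags on surface-bound antibodies, here against CD150, CD48 and CLCA3A1. Each age was 1 library. Barcodes end in the suffix 1 or 2, which the labels do not tie to an age, so the libraries are given side by side as suffix 1 and suffix 2, old and young cells were not compared, and no test across samples was possible. All intervals are 95% intervals that cover counting error only.

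PU.1, the protein of Spi1, is an ETS factor that is present in stem cells and whose rising dose favours the macrophage and dendritic cell fates, and C/EBPα, made from Cebpa, opens the granulocyte-monocyte program together with it. IRF8 binds DNA as a partner of PU.1 and is needed for monocytes and for type 1 conventional dendritic cells, whereas GFI1 is a repressor that favours granulocytes and opposes PU.1. KLF4 acts in monocytes, C/EBPβ in stress-induced granulopoiesis and in macrophages, and Csf1r, a textbook PU.1 target, encodes the receptor for macrophage colony-stimulating factor.

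The members lie on separate chromosomes (GRCm38), except that Spi1 (chr2:91082390-91115756, plus strand) and Cebpb (chr2:167688915-167690418, plus strand) share one. Cebpa was annotated at chr7:35119293-35121928, Irf8 at chr8:120736358-120756694, Gfi1 at chr5:107716657-107726036 (minus strand) and Klf4 at chr4:55527143-55532466 (minus strand). The promoters of Cebpa and Irf8 are shown because these members had the largest differences between the tag gates below. Each covers 250 bases before and 50 after the start in RefSeq (GRCm38.p6, plus strand, chr7:35119043-35119342 and chr8:120736108-120736407).
Cebpa: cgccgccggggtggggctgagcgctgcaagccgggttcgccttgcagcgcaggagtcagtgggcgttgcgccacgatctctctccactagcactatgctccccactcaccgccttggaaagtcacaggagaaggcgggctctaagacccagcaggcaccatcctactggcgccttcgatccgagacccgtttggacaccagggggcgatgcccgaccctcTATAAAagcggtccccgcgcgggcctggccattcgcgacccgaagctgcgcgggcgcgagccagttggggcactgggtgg
Irf8: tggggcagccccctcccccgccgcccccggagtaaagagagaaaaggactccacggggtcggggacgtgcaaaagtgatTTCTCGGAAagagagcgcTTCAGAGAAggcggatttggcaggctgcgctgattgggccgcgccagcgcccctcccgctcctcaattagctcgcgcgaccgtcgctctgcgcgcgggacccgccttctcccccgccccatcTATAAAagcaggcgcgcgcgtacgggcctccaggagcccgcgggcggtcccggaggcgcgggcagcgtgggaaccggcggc
Capitals mark matches to any of 5 motifs searched on both strands, namely GAGGAA (a PU.1 core), TTGCNNAA (C/EBP), an IRF motif of 2 copies of GAAA spaced by 2 bases, TTCNNNGAA (STAT) and TATAAA (the TATA box), and no matches overlapped. Both promoters held TATAAA, which 13.6% of all 32851 windows held, at position -30 from the start in Cebpa and -31 in Irf8. Irf8 also held TTCNNNGAA at positions -171 and -153, a motif found in 8.3% of windows. The PU.1 core, found in 28.3% of windows, the C/EBP motif (10.8%) and the IRF motif (3.44%) were not among the letters of these 2 windows.

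Of 4688 cells in the table, 4068 had under 10% mitochondrial UMIs and over 1500 detected genes, and 3986 of these also had tags and were used (1497 of suffix 1 and 2489 of suffix 2, with 27073429 and 43434366 UMIs). Median depth was 15240 UMIs per cell in suffix 1 and 14891 in suffix 2, and the libraries shared 0 barcodes. Cells were placed in 4 gates by the 75th percentile of the CD150 tag and the 25th percentile of the CD48 tag, set within each suffix. The CD150-high CD48-low gate, the phenotype of long-term stem cells, held 555 cells, the CD150-low CD48-low gate 454, the CD150-high CD48-high gate 450 and the CD150-low CD48-high gate, which holds most multipotent progenitors, 2527. In the CD150-high CD48-low gate, 5 of 8 measured stem cell genes were over 2-fold higher than in the CD150-low CD48-high gate, including Slamf1, which encodes CD150 (log2 2.35), and Procr (log2 1.84), and 10 of 10 cell cycle genes were over 2-fold lower. Tag counts differed between the libraries, with a median of 189 CD150 and 111 CD48 tags in the CD150-high CD48-low cells of suffix 1 and of 775 CD150 tags in those of suffix 2, so a gate is a rank within a suffix and not a common tag level. In the CD150-low CD48-low gate the medians were 4.47 CD150 and 152 CD48 tags in suffix 1. They were 84.5 and 23 in suffix 2. Summed counts of macrophage genes (C1qa, C1qb, C1qc, Adgre1, Vcam1) lay between 0.38 and 10.5 CPM, the UMIs of a gene scaled to a common total in the 8 gate-by-suffix sums, those of neutrophil genes between 4.17 and 12.9 CPM, mast cell and basophil genes between 0.38 and 26.8 CPM and mature erythroid genes between 25.7 and 210 CPM. T and NK cell genes gave 3.80 to 202 CPM with Cd3e at 0, and B and plasma cell genes 43.1 to 5053 CPM with Pax5 at 0. Without 12 immunoglobulin-rich cells or without the 37 called doublets, the members' ratios between the CD150-high CD48-low and CD150-low CD48-high gates stayed within their intervals.

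To see how the regulators are set along the CD150 and CD48 axes, the UMIs of each gene were summed over the cells of a gate and given as CPM. Of the 7 members, 6 passed a mean of 10 CPM; Csf1r, at 2.52 CPM, did not and is described by its counts. From the CD150-low CD48-high to the CD150-high CD48-low gate, Cebpa and Irf8 were the lowest relative to their reference, Spi1 and Gfi1 were also lower, and Cebpb and, less so, Klf4 were higher, with sizes that differed between the libraries. On the log2(CPM + 10) scale, 1 of the 6 was at least 2-fold higher (Cebpb) and 2 were at least 2-fold lower (Cebpa and Irf8), where 2.16% and 4.21% of the 8473 genes tested were. Unless another gate is named, gate comparisons below take the CD150-low CD48-high gate as their reference.

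Spi1 was read at 109 CPM in suffix 1 and 70.1 CPM in suffix 2 in the CD150-high CD48-low gate, 155 and 93.4 CPM in the CD150-low CD48-low gate, 114 and 83.7 CPM in the CD150-high CD48-high gate, and 152 and 157 CPM in the CD150-low CD48-high gate. The libraries lay together in the CD150-low CD48-high gate (suffix 2 over suffix 1, 1.03, interval 0.980 to 1.08) and apart in the other gates, with suffix 2 the lower (0.641, 0.604 and 0.732). The CD150-high CD48-low gate was at 0.528 of the CD150-low CD48-high gate (0.485 to 0.573), at 0.717 within suffix 1 and 0.447 within suffix 2. The CD150-low CD48-low gate stood at 0.597 (0.526 to 0.675) in suffix 2 and at 1.02 (0.911 to 1.13) in suffix 1, so no lower Spi1 was seen there in suffix 1.

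Cebpa had 7.99 CPM in suffix 1 and 1.33 CPM in suffix 2 in the CD150-high CD48-low gate, 36.4 and 4.17 CPM in the CD150-low CD48-low gate, 14.4 and 5.62 CPM in the CD150-high CD48-high gate, and 46.1 and 29.4 CPM in the CD150-low CD48-high gate. Suffix 2 was below suffix 1 in every gate, and the widest gap lay in the CD150-low CD48-low gate (0.114, 0.0571 to 0.210, from 12 and 92 UMIs). The tag levels of that gate also differed between the libraries, as given above. The CD150-high CD48-low gate held 0.0938 of the level of the CD150-low CD48-high gate (0.0605 to 0.139), from 25 UMIs in all. The ratio was 0.173 in suffix 1 (0.102 to 0.276) and 0.0452 in suffix 2 (0.0181 to 0.0936), and 0.0399 where the tag percentiles were set over both suffixes.

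Irf8 had 3.11 and 6.65 CPM in suffix 1 and suffix 2 in the CD150-high CD48-low gate, 9.89 and 6.25 CPM in the CD150-low CD48-low gate, 7.09 and 7.42 CPM in the CD150-high CD48-high gate, and 47.2 and 56.9 CPM in the CD150-low CD48-high gate. Of its 2739 UMIs, 2588 fell in the last gate. Its level in the CD150-high CD48-low gate was 0.105 of that in the CD150-low CD48-high gate (0.0752 to 0.142), at 0.0659 in suffix 1 (0.0264 to 0.136) and 0.117 in suffix 2 (0.0810 to 0.163). The other gates stood at 0.149 and 0.136, and the 3 low gates did not separate beyond their intervals when both suffixes were summed. Cycling cells were unequally spread, with 14 in the CD150-high CD48-low and 1070 in the CD150-low CD48-high gate, and without them the Irf8 ratios were 0.213, 0.283 and 0.287 in the CD150-high CD48-low, CD150-low CD48-low and CD150-high CD48-high gates. The part of the cell cycle in these values was not tested further.

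Gfi1 read 8.88 and 16.3 CPM (suffix 1 and suffix 2) in the CD150-high CD48-low gate, 32.1 and 25 CPM in the CD150-low CD48-low gate, 11 and 10.3 CPM in the CD150-high CD48-high gate and 30.1 and 33.6 CPM in the CD150-low CD48-high gate. Both CD150-high gates were thus below both CD150-low gates in each suffix. Relative to the CD150-low CD48-high gate the summed levels were 0.436 (0.355 to 0.531), 0.876 (0.737 to 1.03) and 0.330 (0.266 to 0.405) in the CD150-high CD48-low, CD150-low CD48-low and CD150-high CD48-high gates. In the CD150-low CD48-low gate the ratio was 1.07 in suffix 1 (0.832 to 1.35) and 0.744 in suffix 2 (0.578 to 0.946).

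Cebpb ran the other way. In the CD150-high CD48-low gate it had 64.4 CPM in suffix 1 and 164 CPM in suffix 2, followed by 66.1 and 104 CPM in the CD150-low CD48-low gate, 54.6 and 117 CPM in the CD150-high CD48-high gate and 52.8 and 62.4 CPM in the CD150-low CD48-high gate. Suffix 2 exceeded suffix 1 in each gate, by 2.55-fold (2.13 to 3.06) in the CD150-high CD48-low gate and by 1.18-fold (1.09 to 1.28) in the CD150-low CD48-high gate. The excess in the CD150-high CD48-low over the CD150-low CD48-high gate, 2.28-fold in all (2.12 to 2.45), was accordingly 2.63-fold in suffix 2 and 1.22-fold (1.02 to 1.45) in suffix 1. Under a stricter cell filter (under 5% mitochondrial UMIs and over 2500 genes), which left 57 cells in the first gate and 238 in the second, the ratio was 1.06.

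Klf4 was higher in suffix 1 than in suffix 2 in all 4 gates, most of all in the CD150-low gates. It had 26.6 and 18.4 CPM in the CD150-high CD48-low gate, 38.8 and 11.1 CPM in the CD150-low CD48-low gate, 18.3 and 11.7 CPM in the CD150-high CD48-high gate and 24.5 and 9.37 CPM in the CD150-low CD48-high gate. Between the CD150-high CD48-low and CD150-low CD48-high gates the ratio was 1.97 in suffix 2 (1.55 to 2.48) and 1.09 in suffix 1 (0.814 to 1.42). Age cannot be told apart from the library in any of these suffix differences.

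Csf1r (chr18:61100598-61132149, GRCm38, plus strand) gave 178 UMIs in all, of which 171 fell in the CD150-low CD48-high gate (51 in suffix 1 and 120 in suffix 2), 6 in the CD150-high CD48-high gate, 1 in the CD150-low CD48-low gate and 0 in the CD150-high CD48-low gate. Taking 3 counts over the gate as the floor, the CD150-high CD48-low gate was 8.84-fold lower than the CD150-low CD48-high gate. By the same floor it was 2.17-fold lower in suffix 1 and 6.83-fold in suffix 2. The exact interval of the summed ratio was wider, at 0 to 0.141.

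**Figure D1:**
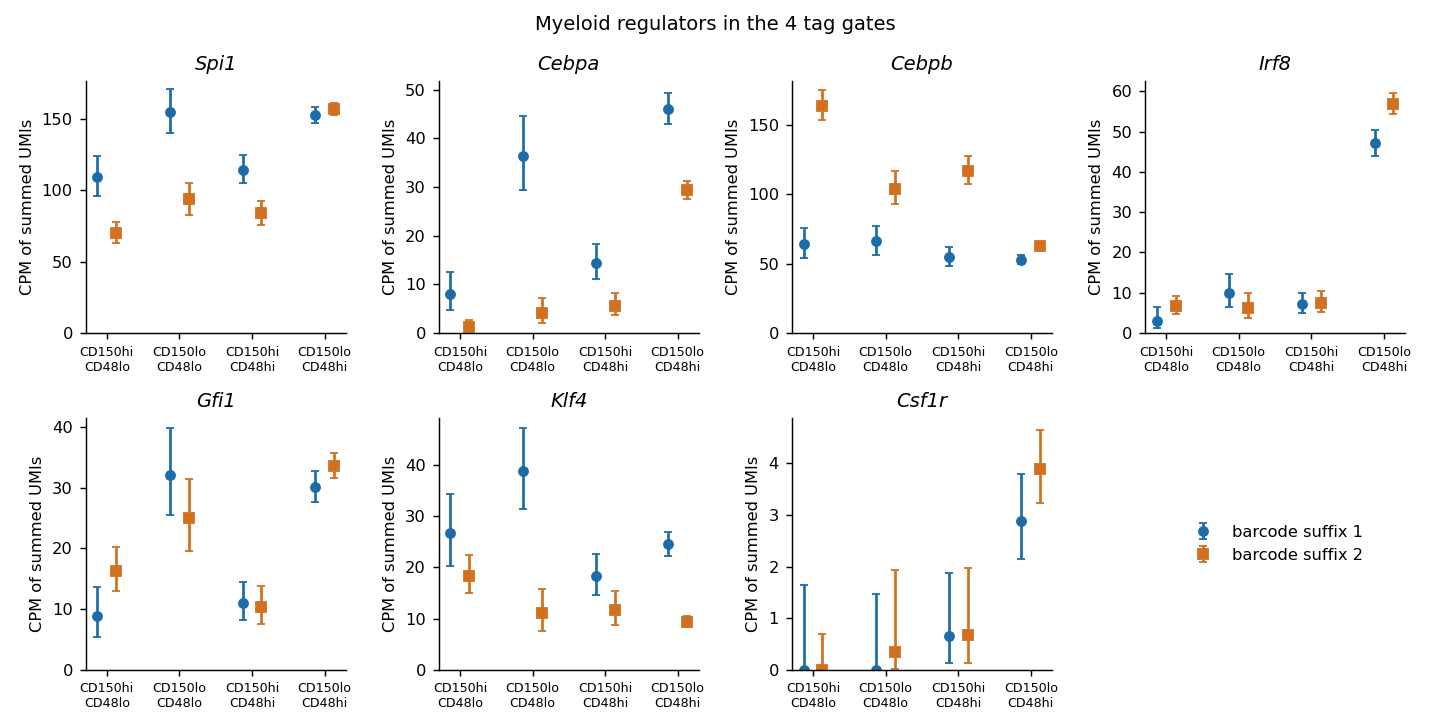
CPM of summed UMIs (y axis, linear, 1 panel per gene) in the 4 tag gates, with suffix 1 as circles and suffix 2 as squares and bars for the 95% Poisson interval. Irf8 stands out in the CD150-low CD48-high gate alone (47.2 and 56.9 CPM), Cebpb is highest in suffix 2 of the CD150-high CD48-low gate (164 CPM), and Spi1 of the libraries meets only in the CD150-low CD48-high gate.

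Against the same reference gate, 0 of the 6 members were at least 2-fold higher and 1 (Irf8) at least 2-fold lower in the CD150-low CD48-low gate, where 0.803% and 2.43% of all genes tested were. In the CD150-high CD48-high gate 0 were higher and 3 (Cebpa, Irf8, Gfi1) were lower, where 0.885% and 0.637% of all genes were. These counts rest on sums over both libraries.

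A level summed over cells does not say how many cells carry a transcript, so cells were thinned to 9000 UMIs each, which left out 216 shallower cells, and cells with at least 1 UMI were counted. Spi1 was found in 45.9% of 519 CD150-high CD48-low cells (41.5 to 50.3) and in 73.3% of 2435 CD150-low CD48-high cells (71.5 to 75), with median depths before thinning of 13563 and 16787 UMIs. In 24 cells with at least 3 UMIs of the erythroid genes Gata1 and Klf1 (median 27588 UMIs), a lineage that should lose Spi1, the share was 41.7% (22.1 to 63.4), close to that of the CD150-high CD48-low gate. Cebpa was seen in 3.08% of CD150-high CD48-low and 24.0% of CD150-low CD48-high cells, Gfi1 in 10.0% and 24.1%, and Klf4 in 14.1% and 10.4%. The erythroid cells gave 4.17% for Cebpa and for Gfi1 (1 cell each) and 0 of 24 for Klf4, where a floor of 3 counts allows up to 12.5% of cells with a UMI. The shares of Cebpa and Gfi1 in the CD150-high CD48-low gate lie within the interval of this background (0.105 to 21.1). Both shares of Klf4 lie within its own (0 to 14.2). With 24 cells these intervals are too wide to tell whether the shares stand above the background. Cebpb was detected in 62.8% of CD150-high CD48-low and 41.1% of CD150-low CD48-high cells, against 25% of the erythroid cells, but the gates separated only in suffix 2 (72.5% and 42.5%) and not in suffix 1 (40.4%, 32.6 to 48.5, and 38.7%, 35.4 to 42.0). In the CD150-high CD48-low gate the shares of suffix 1 and suffix 2 were also apart for Spi1 (60.9% and 39.4%) and Klf4 (21.8% and 10.7%). For Cebpa (6.41%, 3.12 to 11.5, and 1.65%, 0.609 to 3.56) and Irf8 (2.56%, 0.703 to 6.43, and 6.61%, 4.28 to 9.68) the intervals overlapped. For Irf8 the shares were 5.40% and 18.4%, with 0 of 24 erythroid cells, so that the lower of them is under the limit of 12.5%. For Csf1r they were 0 of 519 cells, where the same floor allows up to 0.578% of cells with a UMI, and 2.55%. Without thinning the shares of the CD150-high CD48-low and CD150-low CD48-high gates were 58.4% and 89.7% for Spi1, 4.50% and 40.8% for Cebpa, 72.4% and 60.1% for Cebpb, 6.49% and 27.5% for Irf8, 13% and 39% for Gfi1 and 0% and 4.71% for Csf1r. Those of Klf4 were level (17.1% and 17%).

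Irf8 was very unevenly spread within the CD150-low CD48-high gate. A cell held up to 41 Irf8 UMIs of 9000, against at most 2 in the other 3 gates and at most 10 Spi1 UMIs in any cell. The 35 cells with 5 or more (9 of suffix 1 and 26 of suffix 2), 1.44% of the gate, held 38.6% of its Irf8 UMIs. These cells also had high antigen presentation and dendritic cell transcripts: Cd74, the MHC class II invariant chain, at 5584 CPM against 299 CPM in the other 2400 cells, H2-Aa, an MHC class II chain, at 2422 against 167 CPM, and Xcr1, a chemokine receptor of type 1 conventional dendritic cells, with 56 of the 57 UMIs found in the gate. Ly86, which partners an innate receptor, stood at 222 against 2.64 CPM, and Ccr2 and Ly6c2, both of monocytes and their precursors, at 140 against 4.31 CPM and 156 against 4.81 CPM. Siglech, a plasmacytoid dendritic cell marker, gave 1 UMI. Tcf4, from the same list of monocyte and dendritic cell genes, was not higher (152 against 182 CPM, ratio 0.836, 0.615 to 1.11). F13a1, also of that list, had 0 UMIs in suffix 1 and 18 in suffix 2. Genes of other programs were high as well, namely Mpo at 1114 against 157 CPM and Dntt at 641 against 271 CPM. The libraries differed in these cells, with Elane, a granule protease, at 0 UMIs in suffix 1 and 226.5 CPM in suffix 2 and Ly6c2 at 37.0 and 197 CPM. The genes of this paragraph were picked after their values were seen.

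Among the members, Spi1 was 1.91-fold higher in the Irf8-rich cells (1.54 to 2.34; 2.47-fold in suffix 1 and 1.72-fold in suffix 2) and Csf1r 9.46-fold higher (3.90 to 19.9, from 8 UMIs). Cebpa was at 1.20 in all (0.634 to 2.06), at 1.97 in suffix 2 (1.01 to 3.48) and at 0.25 in suffix 1, from 1 UMI. Klf4 was at 1.76 in all (0.797 to 3.38), at 3.80 in suffix 2 (1.60 to 7.72) and at 0.426 in suffix 1, also from 1 UMI. Cebpb had a ratio of 1.25 (0.797 to 1.86). Gfi1 was at 0.461 with an interval that reached past 1 (0.149 to 1.08). Kit was lower (0.552, 0.353 to 0.822). Their median depth before thinning was 27622 UMIs, against 16612 for the other cells. Whether some were doublets could not be read from the doublet caller, which marked few cells in these libraries.

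Whether the members follow Spi1 from cell to cell was read in the same gate at the same 9000 UMIs, by the Spi1 UMIs of a cell. Irf8 stood at 33.3 CPM in 651 cells without a Spi1 UMI, 31.4 CPM in 801 cells with 1, 41.6 CPM in 548 cells with 2 and 94.5 CPM in 435 cells with 3 or more. The last step made the difference, with 3 or more over none at 2.84 (2.38 to 3.4), 2.36 in suffix 1 and 3.17 in suffix 2. Without the 35 Irf8-rich cells the ratio was 1.57 (1.24 to 1.99) in all, 2.30 in suffix 2 (1.70 to 3.13) and 0.797 in suffix 1 (0.518 to 1.21). The cells left out were chosen by their Irf8 UMIs and were also higher in Spi1, so leaving them out lowers this ratio by construction.

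Cebpa went from 25.9 to 32.5, 40.6 and 43.9 CPM over the same 4 classes, and the ratio of the last to the first, 1.69 (1.35 to 2.12), was 1.69 also without the Irf8-rich cells. Gfi1 was at 1.29 in all (1.03 to 1.61), with intervals that included 1 in suffix 1 (0.864 to 2.00) and in suffix 2 (0.973 to 1.66), and Klf4 (1.28, 0.919 to 1.78) and Cebpb (1.13, 0.956 to 1.32) did not separate from 1. Csf1r had a ratio of 2.19 (1.02 to 4.82) from 19 and 13 UMIs, at 1.27 in suffix 1 (0.306 to 4.99) and 2.96 in suffix 2 (1.12 to 8.68). The other gates held 33 to 49 cells with 3 or more Spi1 UMIs and went otherwise in part. In the CD150-low CD48-low gate Klf4 was at 3.36 in all (1.70 to 6.68, from 21 and 18 UMIs). Its intervals included 1 within suffix 1 (1.86, 0.852 to 4.17) and suffix 2 (4.70, 0.933 to 21.8). Cebpb was at 1.44 there (1.01 to 2.02), at 2.22 in suffix 1 (1.18 to 4.25) and 1.67 in suffix 2 (1.03 to 2.63), while Irf8 was at 0.959 (0.273 to 2.78). In the CD150-high CD48-low gate Cebpb was at 0.667 in all (0.447 to 0.963) but at 0.843 and 1.01 within suffix 1 and suffix 2, and Irf8 had 2 and 22 UMIs. Genes of the lympho-myeloid progenitors moved over the same classes, with Mpo at 108 CPM without Spi1 and 269 CPM with 3 or more and Flt3 at 153 and 196 CPM, and their part in the Irf8 and Cebpa values was not tested.

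**Figure D2:**
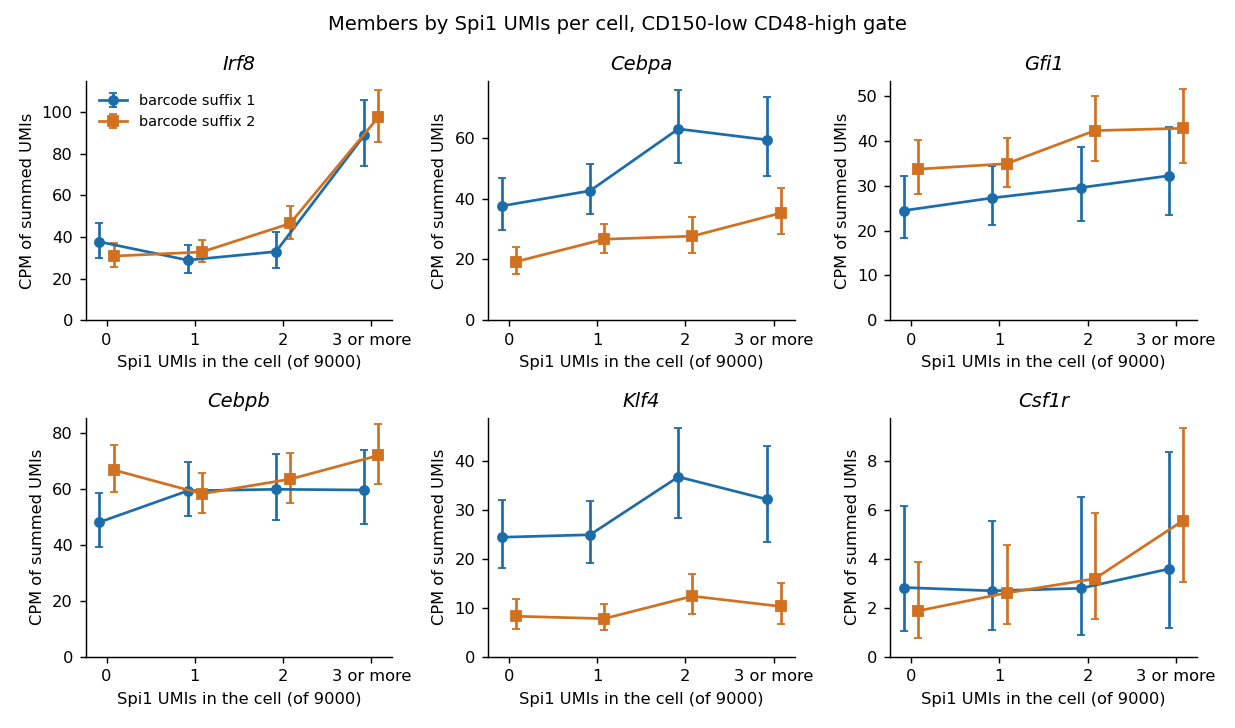
CPM of summed UMIs of 6 members (y axis, linear) by the number of Spi1 UMIs in a cell (x axis) in the CD150-low CD48-high gate, at 9000 UMIs per cell, with suffix 1 as circles, suffix 2 as squares and bars for the 95% Poisson interval. Irf8 is flat up to 2 Spi1 UMIs in suffix 1 and reaches 88.9 and 97.6 CPM at 3 or more, and Cebpa lies higher in suffix 1 than in suffix 2 in every class.

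Joint detection tied Irf8 to Csf1r. A Csf1r UMI was found in 7.80% of 449 cells with an Irf8 UMI (5.49 to 10.7) and in 1.36% of 1986 cells without one (0.898 to 1.97). Klf4 was seen in a smaller share of Irf8-positive than of Irf8-negative cells (6.01%, 4.00 to 8.63, against 11.4%, 10.0 to 12.9). Within each library the direction was the same but the intervals overlapped. The shares were 10.1% (6.01 to 15.7) and 17.7% (15.0 to 20.7) in suffix 1, and 3.56% (1.72 to 6.45) and 7.84% (6.43 to 9.46) in suffix 2. The level of Klf4 in the Irf8-rich cells of suffix 2 was nevertheless higher, as given above. Cebpa given Klf4 was higher in suffix 1 only, at 45.5% (37.1 to 54.0) against 30.0% (26.7 to 33.5) in suffix 1 and 14.5% (8.55 to 22.5) against 19.6% (17.6 to 21.7) in suffix 2, where the intervals overlapped. Its summed shares of 32.0% and 23.1% mix the libraries. Cebpa was present in 28.1% of Irf8-positive and 17.3% of Irf8-negative cells of suffix 2. In suffix 1 the shares were 33.9% (26.8 to 41.6) and 32.2% (28.8 to 35.8). Cebpb and Gfi1 gave shares of like size with and without Irf8 (41.0% and 41.1%; 26.5% and 23.6%).

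**Figure D3:**
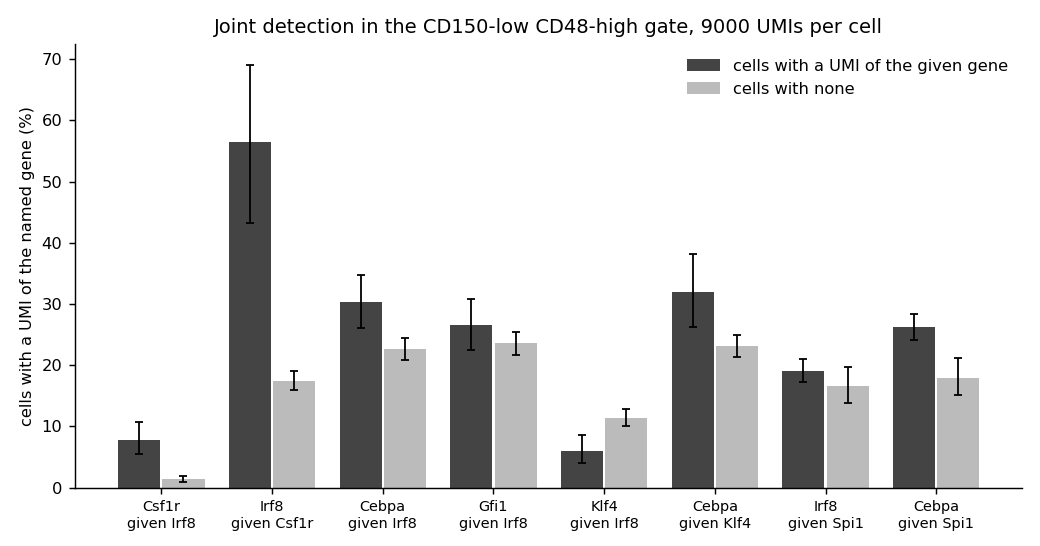
Share of cells with a UMI of the gene named first under each pair of bars (y axis, percent, from 0) among CD150-low CD48-high cells with (dark) and without (light) a UMI of the given gene, at 9000 UMIs per cell, with 95% Clopper-Pearson intervals. The widest contrast is Irf8 given Csf1r, 56.5% against 17.4%.

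Before thinning, 126 cells held a Csf1r UMI, 119 of them in the CD150-low CD48-high gate. Irf8 was at 214 CPM in the 126 cells and at 41.6 CPM in the 2408 cells of that gate without one, and Mpo, a neutrophil and monocyte granule enzyme, at 1024 against 185 CPM. Klf4 (10.4 against 15.2 CPM) and Gfi1 (24.1 against 32.8 CPM) were not higher. The cells were deep, with a median of 25302 UMIs against 16105, and a rare transcript is easier to see in a deep cell. Macrophage genes summed to 16.2 CPM in them against 6.65 CPM.

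Within the CD150-low CD48-high gate, cells were also split by UMIs of Flt3, the receptor that marks lympho-myeloid progenitors, at 9000 UMIs. Irf8 was 3.84-fold higher in Flt3-positive than in Flt3-negative cells of suffix 2 (3.15 to 4.72) and 1.18-fold in suffix 1 (0.887 to 1.58). Spi1 went from 1.23-fold in suffix 2 (1.13 to 1.34) to 1.06-fold in suffix 1 (0.924 to 1.23). In cells with a UMI of Dntt, which marks early lymphoid priming, Irf8 was higher in both libraries alike (2.17-fold in suffix 1 and 2.16-fold in suffix 2). In the cells with 4 or more Mpo UMIs, Irf8 was higher in both (2.38 and 2.86). Klf4 was at 0.0701 in suffix 1, from 1 UMI, and at 0.696 in suffix 2 with an interval that included 1 (0.360 to 1.24). Cebpa was 2.45-fold higher in suffix 2 (1.93 to 3.09) and at 0.731 in suffix 1 (0.421 to 1.19).

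To see whether the members follow Spi1 along the surface level of CLCA3A1, a protein that marks a share of stem cells, the CD150-high CD48-low gate was cut into tertiles of the CLCA3A1 tag within each suffix (188, 184 and 183 cells). Spi1 went from 128 to 97.9 and 102 CPM over the lowest, middle and highest tertile in suffix 1 and from 88.0 to 63.1 and 61.6 CPM in suffix 2. The highest tertile was at 0.729 of the lowest (0.600 to 0.884), at 0.7 in suffix 2 (0.543 to 0.902) and at 0.793 in suffix 1, where the interval included 1 (0.582 to 1.08). At a limit of 1.5-fold on the log2(CPM + 10) scale, 0 of the 6 tested members were higher and 0 lower, where 0.295% and 0.271% of all genes tested were.

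Gfi1 was at 0.540 of its lowest tertile (0.298 to 0.957), with 10, 10 and 0 UMIs in suffix 1 and 24, 41 and 21 UMIs in suffix 2, where the ratio was 0.739 (0.391 to 1.39). Cebpb, at 0.969 (0.831 to 1.13), went from 55.3 to 78.9 CPM in suffix 1 and from 175 to 156 CPM in suffix 2. With tertiles set over both suffixes, Cebpb was at 1.84, Gfi1 at 1.03 and Spi1 at 0.549. The median CLCA3A1 tag of this gate was 25 in suffix 1 and 214 in suffix 2, so such tertiles largely set one library against the other. Klf4 was level (1.06, 0.708 to 1.58). Irf8 (15 and 10 UMIs), Cebpa (5 and 6 UMIs) and Csf1r (no UMI) were too rare there for a difference to be detectable at this depth.

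**Figure D4:**
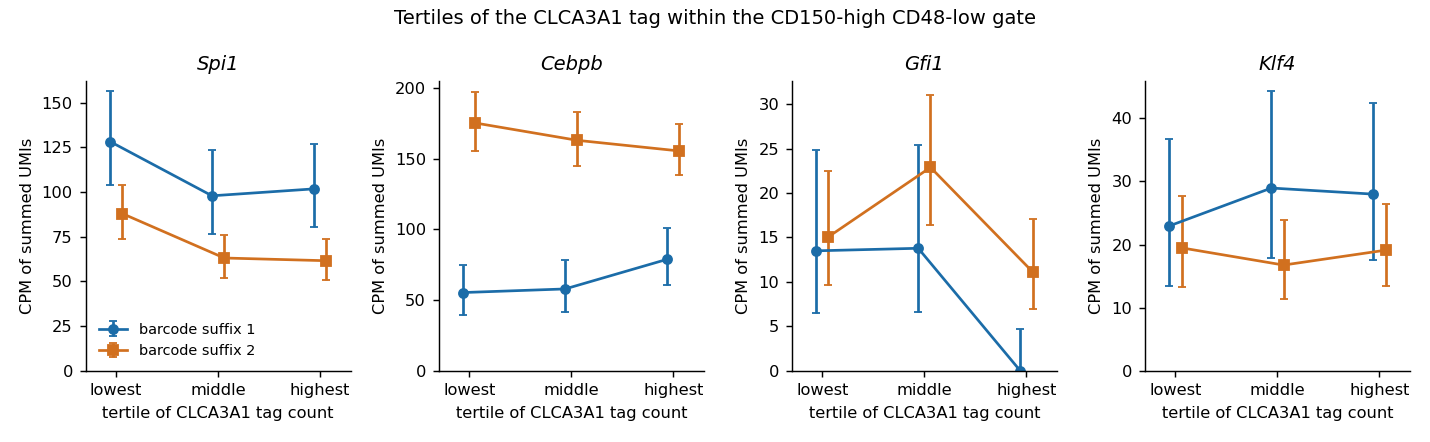
CPM of summed UMIs (y axis, linear) of 4 members in the lowest, middle and highest tertile of the CLCA3A1 tag (x axis) within the CD150-high CD48-low gate, with suffix 1 as circles, suffix 2 as squares and bars for the 95% Poisson interval. Spi1 is highest in the lowest tertile of each library (128 and 88.0 CPM), and Gfi1 has no UMI in the highest tertile of suffix 1.

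The other tags moved with the CLCA3A1 tag: from the lowest to the highest tertile the median CD150 tag went from 566 to 777, the unmapped tags, those of no antibody, from 29.5 to 46.0 and depth from 12610 to 14121 UMIs per cell. Spi1 was lower by as much across tertiles of those tags, at 0.643 for CD150 (0.522 to 0.789) and 0.646 for unmapped tags (0.524 to 0.794), but not for CD48 (1.09, 0.893 to 1.34). With the CLCA3A1 tag taken relative to unmapped tags the ratio was 0.932 (0.766 to 1.13). In cells below and above the median CD150 tag it was 0.909 (0.694 to 1.19) and 0.869 (0.647 to 1.17). Cebpb was 1.30-fold higher in the highest CD150 tertile (1.12 to 1.52), at 2.12 in suffix 1 (1.38 to 3.32) and 1.17 in suffix 2 (0.994 to 1.39). What the CLCA3A1 tag adds beyond the CD150 and unmapped tags was not tested further.

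**Figure D5:**
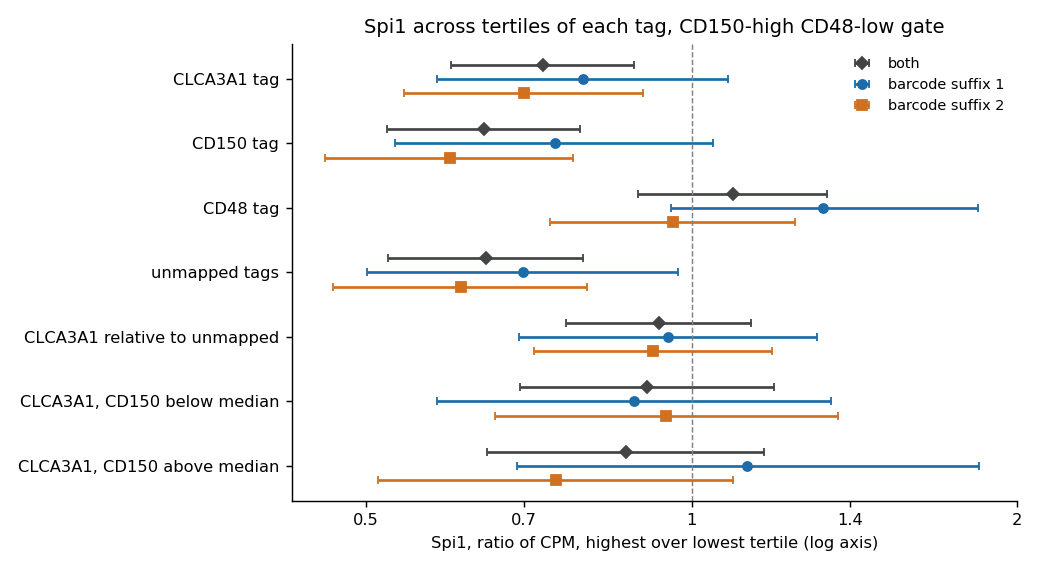
Ratio of Spi1 CPM in the highest over the lowest tertile (x axis, log scale, dashed line at 1) for each tag within the CD150-high CD48-low gate, for both libraries (diamonds), suffix 1 (circles) and suffix 2 (squares), with exact 95% intervals. The ratio is 0.729 for CLCA3A1, 0.643 for CD150 and 0.646 for unmapped tags, and the intervals of the last 3 settings include 1.

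Outside the stem cell phenotype, Spi1 over both libraries was lower in the highest CLCA3A1 tertile too, at 0.735 (0.608 to 0.887) in the CD150-low CD48-low, 0.783 (0.663 to 0.924) in the CD150-high CD48-high and 0.822 (0.778 to 0.869) in the CD150-low CD48-high gate. Within suffix 1 these ratios were 0.785, 0.867 (0.694 to 1.08) and 0.919 (0.838 to 1.01), the last 2 with intervals that included 1. Within suffix 2 they were 0.709, 0.692 and 0.771. In the last gate the median CLCA3A1 tag was 7 in suffix 1 and 12 in suffix 2, below the unmapped tags (48 and 22). Tertiles relative to unmapped tags were not taken there. In that gate, where UMIs of the members were ample, Irf8 (0.414, 0.373 to 0.459), Csf1r (0.221, 0.131 to 0.355) and Cebpa (0.612, 0.540 to 0.692) were lower as well. Gfi1 (0.993, 0.876 to 1.13) and Cebpb (1.03, 0.944 to 1.13) were level. Klf4 was at 1.27 (1.06 to 1.52) in all but had intervals that included 1 in suffix 1 (1.16, 0.911 to 1.47) and in suffix 2 (1.28, 0.963 to 1.71). Irf8 and Cebpa had this direction in each suffix (0.709 and 0.296, and 0.710 and 0.487 in suffix 1 and suffix 2), and so had Csf1r (0.454, 0.209 to 0.933, and 0.135, 0.0597 to 0.269), whereas Gfi1 was opposed (1.31 and 0.846). In the CD150-low CD48-low gate Cebpb was at 1.39 (1.10 to 1.75) and Gfi1 at 0.634 (0.401 to 0.987), both from suffix 2 (1.79 and 0.316) and not suffix 1 (0.975 and 1.15, intervals including 1). Cebpa was lower there too (0.604, 0.381 to 0.944), at 0.669 in suffix 1 (0.408 to 1.08) and 0.542 in suffix 2 (0.116 to 2.13). Klf4 was at 0.696 (0.443 to 1.08) in all, at 0.947 in suffix 1 (0.574 to 1.55) and 0.253 in suffix 2 (0.0611 to 0.794).

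Over the 8 gate-by-suffix sums, Pearson's r of log2(CPM + 10) with Spi1 was 0.957 for Cebpa, 0.680 for Irf8, 0.637 for Gfi1, 0.345 for Klf4 and -0.872 for Cebpb, and Irf8 and Csf1r had r = 0.964. The 8 points share 2 libraries and 4 gates and are a description. Among 723 genes at 20 CPM or more that spanned at least 1 log2 unit, those most like Spi1 were Anxa2 (r = 0.986), Arhgdib (0.981) and Dock10 (0.981). For Irf8 they were Elane (0.962), Cst7 (0.958) and Ccl9 (0.940), and for Csf1r (724 genes) Cst7 (0.978), Irf8 and Ctsg (0.961). By Spearman's rho none of these was among the 3 most like Irf8 (Hk3, Btg2, B4galnt1) or Csf1r (Ctps, Cdk2ap1, Psmc3ip). All 3 named for Cebpb below were likewise replaced (Gstm1, Tmem140, Tmem176a). Klf4 was most like Fos (0.947), Ern1 (0.882) and Fosb (0.850), of which Fos and Fosb are immediate early genes that respond to cell handling. Cebpb ran with Vmp1 (0.978), Ifitm3 (0.975) and Grina (0.972), Cebpa with Fbxw4 (0.994), H2-Ob (0.990) and Wfdc17 (0.986), and Gfi1, with the loosest partners, with Itgb7 (0.877), Cd53 (0.860) and Ighm (0.829).

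Further genes of the myeloid program and of other lineages were described from lists in the CD150-high CD48-low against the CD150-low CD48-high gate. Of 18 measured myeloid receptor and effector genes, 0 were at least 2-fold higher and 5 lower (median log2 -0.51, against -0.07 over all genes tested, of which 2.16% were higher and 4.21% lower): Tyrobp, a signaling adaptor (log2 -2.64), Cd53, a tetraspanin (-2.27), Ncf4 and Ncf1, subunits of the phagocyte NADPH oxidase (-1.98 and -1.84), and the protease gene Ctss (-1.38), which was added after its value was seen. Of 4 measured granule genes 3 were lower, namely Mpo (-4.46), Ctsg (-3.96) and Elane (-2.03), and the fourth was past neither limit. The granule list did not fall as a whole to the same degree, with a sum of 851 CPM against 1113 CPM. Of 13 further myeloid transcription factors 1 was higher, Klf2 (1.16), and 0 were lower. Of 7 measured erythroid and megakaryocyte genes 3 were higher, namely Vwf (3.08), Gata2 (1.48) and Zfpm1 (1.06), and of 5 measured lymphoid genes 4 were lower, Dntt (-4.85) and Flt3 (-3.66) the most. Across the CLCA3A1 tertiles of the CD150-high CD48-low gate, Cd74 (log2 -0.84), H2-Aa (-0.91) and the integrin gene Itgam (-0.65) were over 1.5-fold lower in the highest tertile, 2 of 3 measured monocyte and dendritic cell genes and 1 of 18 receptor and effector genes. In the same comparison 3 of 10 cycling genes were higher (Mki67, 0.95, Cdk1, 0.79, and Top2a, 0.74), and the 1 measured mature erythroid gene, Hbb-bt, was lower (-0.97), where 0.295% of all genes tested were higher and 0.271% lower. The whole gate held 14 cycling cells, and the summed cycling genes went from 298 CPM in the lowest to 367 CPM in the highest tertile. These values are sums over both libraries.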

How the data were processed

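UMI counts per gene and cell were made by the authors with Cell Ranger 3.1.0 (mm10/GRCm38, per the submitters' processing notes); the authors then normalized the libraries to each other in Cell Ranger's aggregation step, whose mode is not given in the sources used here, so the depths of the suffixes are those after it. The authors deposited the tag counts per cell on a log10 scale, and a count of 0 was placed below every other value. The members and lists were chosen with earlier results of these data known, and the Irf8-rich cells, the classes by Flt3, Mpo and Dntt, the tertiles of tags other than CLCA3A1 and those of other gates were added after values had been seen. Genes named are the 7 members, the 3 genes of highest r with each, and up to 4 genes per list by size of the log2 ratio, with exceptions named as such. With 1 library per age no p-value was computed. Levels are summed UMIs as CPM with exact Poisson intervals, ratios carry conditional binomial and shares Clopper-Pearson intervals (scipy 1.17.1). Calls used a pseudocount of 10 CPM and a mean of 10 CPM. Doublets called by scrublet (scanpy 1.11.5; 5 cells of suffix 1 and 32 of suffix 2) were kept, although 0.328% in suffix 1 is too few for the caller to be taken as working on these libraries. Scripts were tested on simulated data. TMM factors came from edgeR 4.0.16, used as an alternative scaling only. Coordinates are those of GENCODE M21. Spi1 and Csf1r have no promoter shown.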

Additional observations from a re-analysis of the deposited data

Results flagged for a closer look

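Klf4 in the CD150-high CD48-low over the CD150-low CD48-low gate was below 1 in suffix 1 (0.687) and above 1 in suffix 2 (1.66), with both intervals clear of 1. The difference between the libraries was not tested across samples. Gfi1 in the highest over the lowest CLCA3A1 tertile of the CD150-low CD48-high gate was opposed in the same way, at 1.31 in suffix 1 and 0.846 in suffix 2, and this difference was not tested either.

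Cells left out of the gates also held the members. In 82 cells that passed the filter but had no tags, Spi1 was at 149 CPM, Cebpa at 16.3, Cebpb at 80.3, Irf8 at 8.14, Gfi1 at 46.5 and Klf4 at 31.4 CPM. In 620 cells that failed the filter, with a median of 3936 UMIs, Spi1 was at 109 CPM, Cebpa at 15.0, Cebpb at 88.5, Irf8 at 29.6, Gfi1 at 24.3 and Klf4 at 16.6 CPM. These levels exceeded what 3 counts would give (3.49 and 0.998 CPM), while Csf1r, with 1 and 2 UMIs, did not.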

How the results depend on the processing

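No paired analysis was possible because each age is 1 library and no label ties a barcode suffix to an age. For the same reason no replicate could be left out, and each suffix alone took its place. Of 252 alternatives for the members' ratios between gates, 185 stayed within the interval of the reported value, 64 moved and 3 reversed, a term kept for ratios whose interval excluded 1; of 72 for the CLCA3A1 tertiles, 63 stayed, 8 moved and 1 reversed. Of 14 alternatives for the genes most like a member, 7 moved, and of 56 for the shares of cells, 39 moved. The cause of each move was not tested. Spi1 in the CD150-high CD48-low over the CD150-low CD48-high gate was 0.717 in suffix 1, 0.447 in suffix 2 and 0.443 with percentiles over both suffixes. Across the CLCA3A1 tertiles it was 0.549 with tertiles over both suffixes, 0.932 relative to unmapped tags and 0.909 below the median CD150 tag, the last chosen after seeing the data. Reversed were Spi1 (1.02, suffix 1) and Klf4 (0.859, percentiles over both suffixes) in the CD150-low CD48-low gate, Cebpb in the CD150-high CD48-high gate (0.561, stricter cell filter, which left 36 cells there) and Gfi1 across tertiles over both suffixes (1.03).

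Genes past the limit, higher and lower, numbered 183 and 357, 68 and 206, and 75 and 54 in the CD150-high CD48-low, CD150-low CD48-low and CD150-high CD48-high gates, and 25 and 23 across tertiles. A pseudocount of 1 gave 294 and 551, 162 and 326, 153 and 99, and 238 and 174. No filter gave 278 higher in the CD150-high CD48-low gate and 39 across tertiles. Suffix 1 alone gave 207 lower in the CD150-high CD48-low gate, 28 and 33 higher in the CD150-low CD48-low and CD150-high CD48-high gates, and 360 and 335 across tertiles. Suffix 2 alone gave 118 higher in the CD150-low CD48-low gate, 153 and 175 in the CD150-high CD48-high gate, and 84 higher across tertiles. Without the Irf8-rich cells, removed after seeing the data, Irf8 in the CD150-high CD48-low gate was at 0.161, which their removal by itself raises. Cebpb there was 1.06 under the stricter filter. Counts of Cebpa, Irf8 and Csf1r in that gate limit what can be seen there.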
